A study of Bos taurus with 24 samples.

Results

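GDF9 and BMP15, the 2 growth factors that the mammalian oocyte secretes, were taken by gene symbol from the expression table, which lists 11306 genes. Each symbol matched 1 row. In the coordinates of the table (bovine build UMD3.1), GDF9 lies on the minus strand of chromosome 7 from 46064179 to 46067120, and BMP15 on the plus strand of chromosome X from 93971184 to 93977810. The table gives whole genes only, so exons, introns and untranslated regions were not distinguished.

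GDF9 and BMP15 belong to the transforming growth factor beta superfamily. They are made as precursors that proprotein convertases cleave, and they are released as homodimers or as a GDF9 to BMP15 heterodimer. On the surrounding granulosa and cumulus cells they bind type II receptors such as BMPR2 together with the type I receptors TGFBR1 (for GDF9) or BMPR1B (for BMP15), and the signal is carried by SMAD2 and SMAD3 or by SMAD1, SMAD5 and SMAD9. Both factors are needed for follicle growth in sheep, and during maturation they act on cumulus expansion and cumulus cell metabolism. The message is laid down while the oocyte grows. Transcription is low in the fully grown oocyte, so most of what is measured there is stored RNA.

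The samples were oocytes aspirated in May (spring) or July (summer) from non-lactating crossbred beef cows, with no treatment named in the labels. The series gives 6 cows and the study 1 animal per pool, so the 24 libraries share cows. The study aspirated each cow of its herd in every month and matured a random part of the complexes of each cow. That herd was larger than 6 cows. Which cow supplied which library is not given, nor whether all groups used the same cows. The tests used here take the libraries as independent, which those from the same cow are not. One stage was germinal vesicle (GV) oocytes, stripped of cumulus cells and frozen without culture, and the other metaphase II (MII) oocytes, matured in vitro inside their cumulus complexes in medium with FSH and serum and then stripped. Oocytes were pooled by 4 for sequencing, giving 6 libraries in each of 4 groups (spring GV, summer GV, spring MII and summer MII) and 24 in all. The season was natural and each season was 1 month, so month, heat and anything else that differed between May and July cannot be told apart, and culture is part of the MII to GV difference.

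Values were deposited as FPKM (fragments per kilobase of gene, scaled to library size), and all libraries sum to the same total, so each value is a share of the library. A higher FPKM can reflect more copies of a message, a larger part of its copies captured and amplified, or less of the other messages. These cannot be told apart in these data. After removal of the constant 0.01, each value times the length of the gene in the genome was a whole multiple of a step particular to the library, in 98.3% of 107512 values tested to within 0.1 of a fragment. The kilobases in the deposited FPKM are therefore those of the whole gene with its introns, 2.941 kb for GDF9 and 6.626 kb for BMP15, and fragment counts could be recovered. The ratio of 1 gene between libraries does not depend on that length, but the level of one gene against another does, as does the shrinkage of a difference when 1 is added before taking logs. For BMP15 in spring maturation, the difference of 1.35 given further on was 1.45 when 0.1 was added instead.

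The recovered fragments on listed genes ranged from 324653 to 28207692 per library. The deepest library was summer GV replicate 5, at 7.35 times the median. Apart in alignment stood 3 libraries, namely spring GV replicate 6, summer GV replicate 2 and spring MII replicate 6. By the study's own summary these 3 aligned poorly. They held 324653, 2543611 and 1028740 fragments, and had the lowest shares of summed FPKM in their 10 most abundant genes (19.3, 18.0 and 24.1%, against 27.7 to 43.2% in the others). In that share summer MII replicates 6 and 4 came next (27.7 and 31.0%), and both were kept where the 3 were left out. Differences of GDF9 and BMP15 that moved by over 1.5 times without the 3 poorly aligned libraries are also given without them. Those of the pathway and marker genes were not examined without these libraries. Oocyte identity was checked with 14 marker genes, of which 10 were listed. All 10 were above the lowest value in every library, and their summed FPKM was 732 to 1832 in GV and 1307 to 1652 in MII libraries. Of 20 cumulus or granulosa cell markers, 18 were listed, and their summed FPKM was 27.2 to 589. The FSH receptor FSHR was at 0 fragments in 21 of 24 libraries. In contrast, STAR (152 to 9737 fragments), KRT8 (109 to 3946), KRT18, SERPINE2, PTGS2 and HAS2 had fragments in every library. The rest of the 18 were at the lowest value in at least 1 library. The highest sum, 589 in spring GV replicate 6, was made up mainly of the keratins KRT18 (392 FPKM) and KRT8 (146 FPKM), whereas without these keratins the highest sum was 152 in spring GV replicate 3, the library with the highest AMH (13.4 FPKM), FST (20.3 FPKM) and VIM (75.7 FPKM).

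GDF9 was an abundant message at both stages and in both seasons. In spring GV oocytes its lowest, median and highest FPKM were 48.7, 85.9 and 261, and in summer GV oocytes 89.7, 125 and 379. In spring MII oocytes they were 33.1, 77.1 and 220.0, and in summer MII oocytes 49.9, 101 and 232. All 4 groups overlapped, and in each GV group the highest value stood far above the next one (90.5 in spring, 148 in summer). These were the poorly aligned libraries, spring GV replicate 6 and summer GV replicate 2. Among spring MII libraries the third poorly aligned one was again the highest. Ranked by FPKM within a library, GDF9 was between the 26th and the 302nd of all listed genes, and it held 0.0382 to 0.437% of the summed FPKM. That rank depends on the gene lengths used. Ranked by fragments, without division by length, GDF9 was between the 38th and the 837th.

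BMP15 was listed at lower FPKM than GDF9 in every library. In spring GV oocytes its lowest, median and highest FPKM were 4.34, 8.54 and 20.04, and in summer GV oocytes 6.82, 14.2 and 25.9. In spring MII oocytes they were 10.2, 27.6 and 41.0, and in summer MII oocytes 9.27, 19.5 and 48.3. Of the 6 spring MII libraries, 5 were above every spring GV library, and the exception was the poorly aligned spring MII replicate 6. BMP15 ranked between the 221st and the 1843rd gene of its library by FPKM, and between the 317th and the 3330th by fragments. Its smallest count was 18 fragments in spring GV replicate 6, for which the exact 95% Poisson interval of 10.7 to 28.4 fragments corresponds to 2.76 to 7.33 FPKM. In the other libraries BMP15 had at least 105 fragments and GDF9 at least 935, so the spread between replicates, 3.79 to 6.65-fold from the lowest to the highest library of a group, was wider than counting error. Amplified reads without molecular identifiers are not independent molecules, and the interval covers counting error only.

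**Figure D1:**
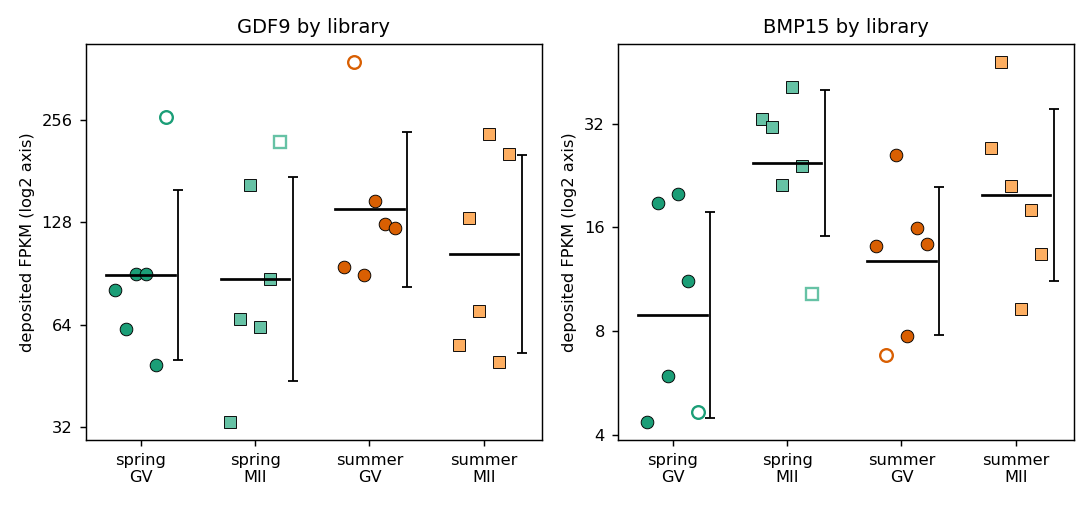
FPKM of GDF9 (left) and BMP15 (right) in each library, by group, on a log2 axis. Circles are GV and squares MII libraries, open symbols are the 3 poorly aligned libraries, horizontal lines are the means of log2 FPKM and the bars beside them 1 SD. GDF9 overlapped in all groups, with the highest values of both GV groups (261 and 379) in poorly aligned libraries. BMP15 was above the spring GV range in 5 of 6 spring MII libraries.

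The first comparison was that of maturation, MII against GV oocytes of the same season. BMP15 was higher in MII oocytes in spring. The mean was 26.8 ± 10.7 FPKM in spring MII and 10.8 ± 7.10 FPKM in spring GV oocytes (SD, n = 6 libraries each), and the MII library was the higher one in 33 of 36 pairs. On the log2(FPKM + 1) scale the difference was 1.35 (SE 0.42, 95% interval 0.43 to 2.27), a fold of 2.55, with an adjusted p of 0.0354 in limma over 9526 genes. In that comparison 24.2% of all genes tested were called (adjusted p under 0.05), 9.45% as higher and 14.7% as lower in MII. By the rule of an unadjusted p under 0.05 with a fold over 2, BMP15 was also among the genes called, 11.8% of those tested. With quantile normalization the split of all calls turned to 1944 higher and 1322 lower, and BMP15 was still called higher. The exact permutation test of BMP15 alone gave p = 0.0195 (two-sided, over all assignments of the libraries, with 0.00216 the smallest p they allow), or 0.156 when adjusted over the 8 exact tests made of both genes.

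The BMP15 call in spring was close to the threshold. Without the 3 poorly aligned libraries the difference was 1.42 (adjusted p = 0.0155, with 41.9% of genes called), and 25 of 25 pairs were higher in MII, at 21.3 to 41.0 FPKM against 4.34 to 20.04 FPKM (exact permutation p = 0.00794, the smallest that 5 against 5 allows, or 0.0635 adjusted over 8 exact tests). In contrast, the adjusted p exceeded 0.05 in 8 of the 12 fits that left out a single library, and in the fit with median-of-ratios scaling (difference 1.13, adjusted p = 0.106). The 8 libraries were spring GV replicates 1, 3 and 5 and spring MII replicates 1, 2, 3, 4 and 5, and the adjusted p without one of them was 0.0514 to 0.0781. The difference itself stayed between 1.17 and 1.59 in all 12 fits.

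In summer, BMP15 was not called between MII and GV oocytes. The mean was 22.8 ± 13.9 FPKM in summer MII and 14.1 ± 6.86 FPKM in summer GV oocytes (SD, n = 6 each), with MII higher in 26 of 36 pairs. The log2 difference was 0.60 (SE 0.39, 95% interval -0.25 to 1.44, adjusted p = 0.267 in limma, exact permutation p = 0.180), while 30.7% of all genes were called in that comparison. The interval includes both 0 and the difference seen in spring. A direct test of the season difference in the maturation change gave -0.75 for BMP15 (SE 0.59, 95% interval -1.98 to 0.47, adjusted p = 0.9998 in limma, where 0% of genes were called), so the change was not shown to differ between seasons.

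GDF9 was not called between MII and GV oocytes in either season. In spring its mean was 106 ± 71.4 FPKM in MII and 106 ± 77.9 FPKM in GV oocytes (SD, n = 6 each), a log2 difference of -0.04 (SE 0.48, 95% interval -1.07 to 0.996, adjusted p = 0.958 in limma, exact permutation p = 0.948). In summer it was 124 ± 79.0 FPKM in MII and 160 ± 109 FPKM in GV oocytes, a difference of -0.43 (SE 0.46, 95% interval -1.42 to 0.57, adjusted p = 0.505 in limma, exact permutation p = 0.409). Without the poorly aligned summer GV replicate 2 the summer difference was -0.14 (adjusted p = 0.806 in limma), and the mean of the GV libraries, 117 ± 24.3 FPKM (n = 5), was below that of the MII libraries. Each interval over all libraries holds changes of more than 1 unit of log2 downwards, so a drop of GDF9 by that much was not excluded. The season difference of the maturation change was -0.39 for GDF9 (95% interval -1.80 to 1.02, adjusted p = 0.9998 in limma), and -0.14 without the 3 poorly aligned libraries.

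The second comparison was that of season, July against May, within each stage. Neither gene was called in either stage, and no other gene was: limma called 0% of 9526 genes in GV and 0% in MII oocytes, with 148 and 201 genes at an unadjusted p under 0.05, and limma with voom on the recovered fragments also called none. In GV oocytes GDF9 was higher in summer in 29 of 36 pairs, with a log2 difference of 0.63 (SE 0.42, 95% interval -0.28 to 1.54, adjusted p = 1 in limma, exact permutation p = 0.210). All 6 summer GV libraries were above the spring GV median of 85.9 FPKM. BMP15 in GV oocytes differed by 0.46 (SE 0.42, 95% interval -0.45 to 1.37, exact permutation p = 0.318). In MII oocytes the summer minus spring difference was 0.24 for GDF9 (95% interval -0.89 to 1.37, exact permutation p = 0.667) and -0.29 for BMP15 (95% interval -1.16 to 0.57, exact permutation p = 0.494). Without spring MII replicate 6 these were 0.51 (exact permutation p = 0.370) and -0.53 (exact permutation p = 0.197).

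Among the 8 maturation and season differences of both genes, leaving out the poorly aligned libraries took only that of GDF9 between GV seasons from an unadjusted p over 0.05 to an unadjusted p under 0.05. Its 5 remaining summer GV libraries had 89.7 to 148 FPKM and the 5 spring GV libraries 48.7 to 90.5 FPKM. The log2 difference was 0.65, with summer higher in 23 of 25 pairs (exact permutation p = 0.0238, or 0.0952 adjusted over the 8 exact tests without these libraries). In limma the unadjusted p was 0.0133, against 0.160 with all libraries, and the adjusted p 0.9999, in a fit where 346 of 9526 genes (3.63%) had an unadjusted p under 0.05. The difference depended on which of the 2 GV libraries was left out. It was 0.94 without spring GV replicate 6 alone (unadjusted p = 0.0211 in limma) and 0.34 without summer GV replicate 2 alone (unadjusted p = 0.366 in limma).

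Ordered by mean FPKM, BMP15 was highest in spring MII, then summer MII, summer GV and spring GV oocytes, and no 2 neighbours in that order differed beyond their spread in limma. For GDF9 the order was summer GV, summer MII, spring MII and spring GV, and again no neighbours differed. The order of GDF9 is not firm: spring GV was above spring MII by median and by mean log2 value, and without the poorly aligned libraries summer MII was above summer GV.

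**Figure D2:**
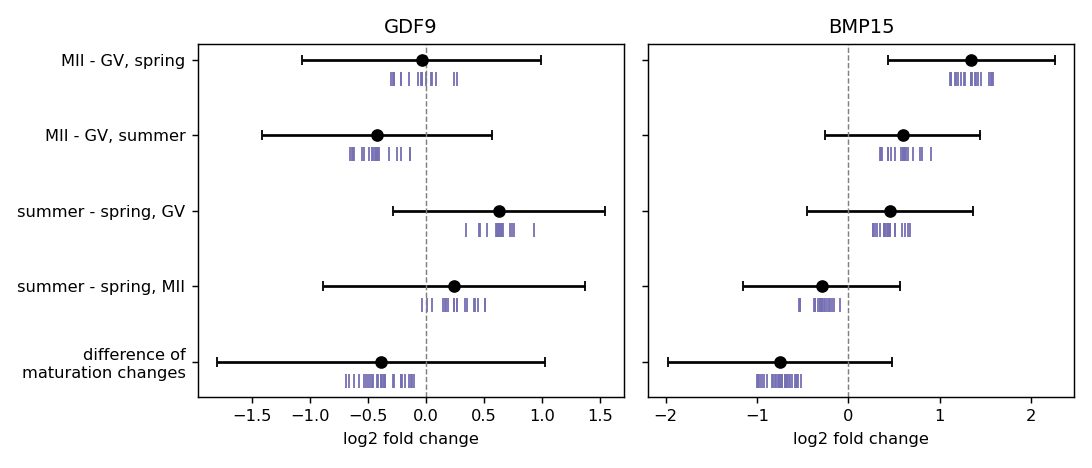
Log2 fold changes of GDF9 (left) and BMP15 (right) on the log2(FPKM + 1) scale for 5 comparisons. Points with bars are limma estimates with 95% intervals, the small ticks under each are the same difference under other settings or with libraries left out, and the dashed line marks 0. Only the interval for BMP15 in spring maturation (0.43 to 2.27) excludes 0, and the ticks for GDF9 in spring maturation lie on both sides of 0.

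The 2 genes were next set against each other within a library, where the ratio does not depend on how the library was scaled. The ratio of GDF9 to BMP15 FPKM had a lowest, median and highest value of 3.31, 9.88 and 56.2 in spring GV oocytes and of 3.47, 8.34 and 55.5 in summer GV oocytes. In MII oocytes it was 1.001, 2.89 and 21.5 in spring and 2.07, 3.06 and 25.1 in summer. The ratio was thus lower in the middle of the MII groups than of the GV groups, but the ranges overlapped widely. The MII minus GV difference of the log2 ratio was -1.50 in spring (exact permutation p = 0.136) and -1.07 in summer (exact permutation p = 0.219), both 0.437 after adjustment over the 4 comparisons of the ratio. Without the poorly aligned libraries the difference was -1.53 in spring (exact permutation p = 0.0794) and -0.60 in summer (exact permutation p = 0.433). Season differed by 0.12 in GV (exact permutation p = 0.894) and by 0.55 in MII oocytes (exact permutation p = 0.550), the latter by 1.07 without spring MII replicate 6 (exact permutation p = 0.232).

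As the length used for BMP15 is the longer one, the ratio of fragments is lower than that of FPKM. Fragments of GDF9 per fragment of BMP15 had medians of 4.39 and 3.70 in spring and summer GV oocytes and of 1.28 and 1.36 in spring and summer MII oocytes. BMP15 had more fragments than GDF9 in 4 libraries (spring MII replicates 1, 2 and 4 and summer MII replicate 1), with ratios of 0.444, 0.9502, 0.686 and 0.917. Which of the 2 messages is the more abundant per length of its exons was not analysed here.

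Across libraries of a stage, GDF9 and BMP15 tended in opposite directions. Over the 12 MII libraries Pearson's r of the log2(FPKM + 1) values was -0.62 (permutation p = 0.0327, or 0.0654 adjusted over the 2 stages) and Spearman's rho -0.58 (permutation p = 0.0518). Over the 12 GV libraries r was -0.42 (permutation p = 0.176) and rho -0.24 (permutation p = 0.442). Without the 2 libraries farthest from the median of GDF9, r was -0.32 in MII and -0.05 in GV oocytes, so on deposited values the relation rests on those libraries: summer MII replicate 4 and spring MII replicate 6, and the poorly aligned pair of GV libraries. With median-of-ratios scaling r was -0.61 in GV and -0.62 in MII oocytes, and -0.54 and -0.46 without the 2 libraries farthest on that scale.

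**Figure D3:**
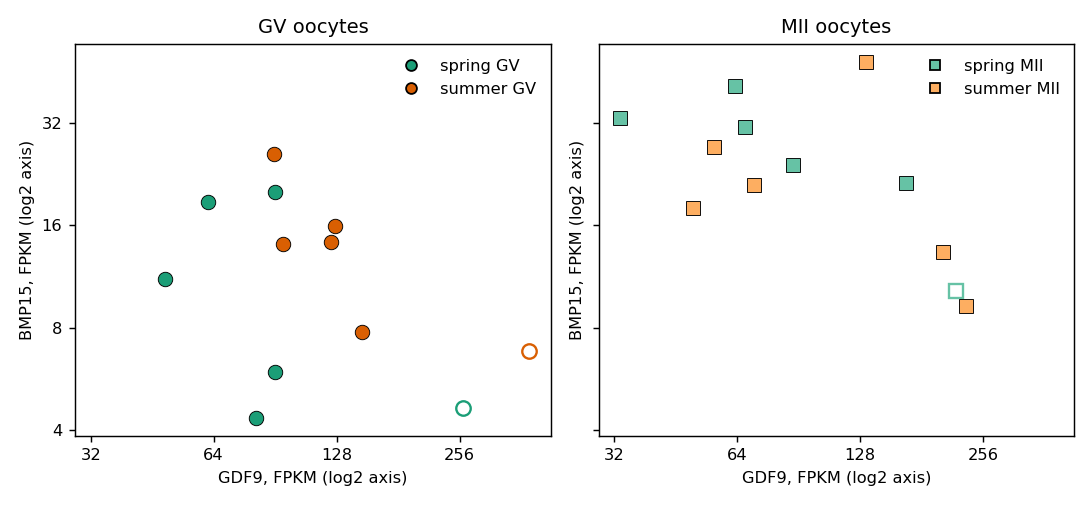
GDF9 against BMP15 FPKM in each GV library (left) and each MII library (right), both axes log2. Colours are seasons and open symbols the 3 poorly aligned libraries. The libraries with the most GDF9 are among those with the least BMP15 at both stages, with r = -0.42 in GV and r = -0.62 in MII oocytes.

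A measure of library composition moved with both genes. The share of summed FPKM in the 10 most abundant genes ran from 18.0 to 43.2%, and over MII libraries GDF9 was lower where that share was higher (r = -0.87, permutation p = 4e-05, 0.00024 adjusted over 6 relations; rho = -0.83, permutation p = 0.00153). Without the 2 farthest libraries r was still -0.87. Over GV libraries r was -0.80 (permutation p = 0.00834, adjusted 0.0250), but rho was -0.41 (permutation p = 0.193) and r became 0.08 without summer GV replicate 2 and spring GV replicate 6, on which the relation rests. BMP15 had r = 0.69 over MII (permutation p = 0.0131, adjusted 0.0262; rho = 0.36, permutation p = 0.246) and r = 0.41 over GV libraries (permutation p = 0.204), which fell to 0.46 and -0.23 without the 2 farthest. The share and the value of each gene are parts of the same fixed total, which by itself pushes them in opposite directions. The permutation p does not allow for this, and the relation of all other genes with the share was not analysed here. The part of library composition in the levels of both genes was not tested beyond these values.

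**Figure D4:**
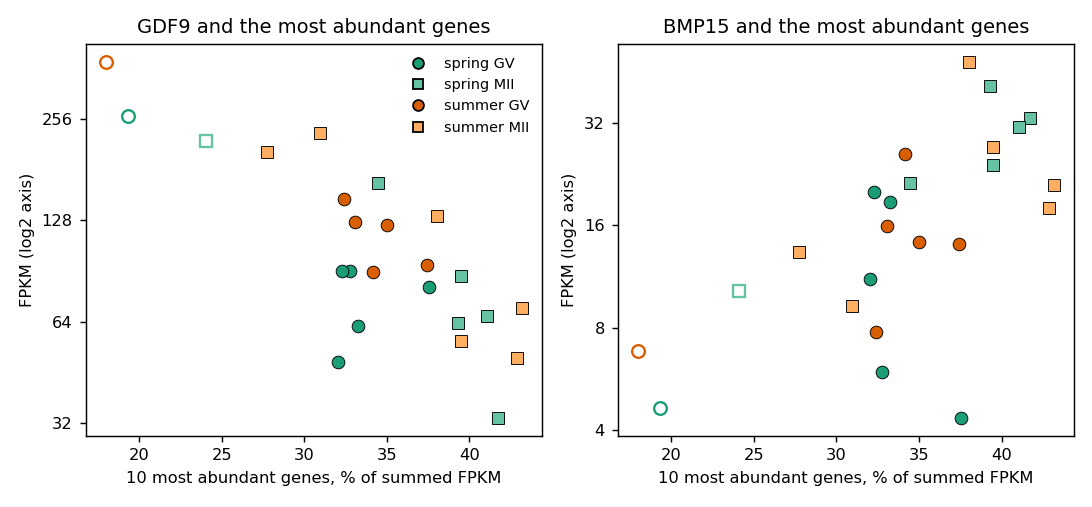
FPKM of GDF9 (left) and BMP15 (right), on a log2 axis, against the share of the library's summed FPKM held by its 10 most abundant genes, in percent. Circles are GV and squares MII libraries, and open symbols the 3 poorly aligned ones. GDF9 falls with the share over MII libraries (r = -0.87), and the 3 poorly aligned libraries, at 18.0 to 24.1%, have 3 of the 4 highest GDF9 values.

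The genes most like each factor were sought among 3664 genes with a mean of at least 1 FPKM. Likeness was the mean of r over the 12 GV and r over the 12 MII libraries, and it is a description, since all points share library composition. It was over 0.5 to GDF9 for 1493 of these genes and over 0.5 to BMP15 for 469. The genes most like GDF9 were CSE1L (0.94), COPA (0.93), CDC42 (0.93), GPBP1 (0.93) and HNRNPH3 (0.93). CSE1L is a nuclear export factor for importin alpha, COPA a coatomer subunit and CDC42 a small GTPase. Those most like BMP15 were KIN (0.90), VPS25 (0.88), BORA (0.86), PTGR2 (0.86) and TLR7 (0.85), of which VPS25 is a subunit of an endosomal sorting complex and BORA an activator of Aurora A.

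The factors did not resemble each other by this measure. Their likeness was -0.52. Of the 3664 genes, 378 (10.3%) were less like GDF9 than BMP15 was, and 903 (24.6%) were less like BMP15 than GDF9 was, where the median likeness of all genes was 0.33 to GDF9 and -0.14 to BMP15. Among oocyte genes, NLRP5, a maternal effect gene, had a likeness of 0.75 to GDF9 and -0.43 to BMP15, with 78.6% and 31.7% of genes below it. The oocyte linker histone H1FOO had the opposite pattern, with -0.81 to GDF9 and 0.71 to BMP15, and 0.464% and 96.5% of genes below it. The zona pellucida genes differed among themselves, with 0.23 to GDF9 and 0.55 to BMP15 for ZP2, 0.28 and -0.04 for ZP3, and 0.59 and -0.26 for ZP4. The other oocyte genes, OOEP, DPPA3, ZAR1 and DAZL, lay between -0.31 and 0.58 to GDF9 and between -0.35 and 0.37 to BMP15.

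The other genes of the pathway were described from a list of 47, of which 29 were listed and 21 passed the filter on low values (over 0.1 FPKM in at least 1 library). Between MII and GV oocytes 1 of the 21 was called in spring and 3 in summer, against 24.2% and 30.7% of all genes tested, and between seasons none of the 21 was called. The median log2 difference over the 21 was -0.04 in spring and 0.01 in summer, beside -0.03 and -0.02 over all genes. Because FPKM here was divided by the whole length of the gene, long genes such as receptors have values far below 1 FPKM, where adding 1 before taking logs shrinks a difference. The recovered fragments, tested with voom and limma for 20 of these genes with a mean of at least 10 fragments, called 7 in spring and 5 in summer, against 44.2% and 44.1% of all 8487 genes so tested. That test has all genes shifted, by a median of -0.27 in spring and -0.44 in summer.

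Among receptors, BMPR2, the type II receptor of both factors, has a gene of 187 kb and was at 0.0552 to 0.613 FPKM, with 17 to 800 fragments. Its MII minus GV difference was 0.17 in spring and 0.21 in summer on the log2(FPKM + 1) scale (adjusted p = 0.137 and 0.0759 in limma). On fragments it was 0.93 in spring (SE 0.37, adjusted p = 0.0520 in limma with voom) and 1.34 in summer (SE 0.37, adjusted p = 0.00902 in limma with voom). BMPR1A, a type I receptor for bone morphogenetic proteins, was higher in MII oocytes in summer by both tests, by 0.40 on FPKM (adjusted p = 0.0318 in limma) and 1.17 on fragments (adjusted p = 0.00573 in limma with voom). ACVR1, another type I receptor, was called higher on fragments in both seasons, by 1.10 and 1.15.

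The type I receptors that these ligands use were lower in MII oocytes in spring, by the fragment test alone. On fragments BMPR1B was lower in spring MII than in spring GV oocytes by a log2 difference of -0.76 (SE 0.29, adjusted p = 0.0421 in limma with voom), and TGFBR1 by -1.15 (SE 0.40, adjusted p = 0.0276 in limma with voom). In summer the differences were -0.67 and -1.69 and neither was called, and on FPKM neither was called in either season. TGFBR1 had a median of 42.5 fragments per library and was at 0 in 1 library. These genes act chiefly in the somatic cells of the follicle, and their messages were measured here in stripped oocytes.

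Of the signal transducers, SMAD2 (0.717 to 3.56 FPKM), SMAD1 and SMAD5 had the highest values and SMAD3 and SMAD9 did not exceed 0.1 FPKM. SMAD1, which carries BMP15 signals, was higher in MII oocytes on fragments in both seasons, by 1.16 (adjusted p = 0.0212 in limma with voom) and 1.47 (adjusted p = 0.0305 in limma with voom), and not called on FPKM. SMAD3, which carries GDF9 signals, was lower in spring MII oocytes on fragments by -1.82 (adjusted p = 0.0379 in limma with voom), from a median of 12.5 fragments per library. SMAD2, SMAD4 and SMAD5 were not called by either test. Of the intracellular inhibitors, SMAD6 and SMAD7 did not exceed 0.1 FPKM, and SKIL was tested on FPKM and not called. Of 7 regulators of transcription in oocytes only TAF4B was listed, at no more than 0.026 FPKM, and the others were not analysed here.

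Among extracellular antagonists, the follistatin-like gene FSTL3 was lower in MII oocytes in both seasons. Its mean was 1.07 ± 0.918 FPKM in spring GV and 0.162 ± 0.0831 FPKM in spring MII oocytes (SD, n = 6), a log2 difference of -0.72 (adjusted p = 0.0454 in limma). In summer it was 0.853 ± 0.551 FPKM in GV and 0.123 ± 0.0927 FPKM in MII oocytes, a difference of -0.68 (adjusted p = 0.00983 in limma). On fragments the differences were -2.97 and -3.45 (adjusted p = 0.00165 and 0.00295 in limma with voom), from a median of 12.5 fragments per library. The BMP antagonist GREM1 was lower in summer MII oocytes by -0.45 (adjusted p = 0.0166 in limma), but it had a median of 2.5 fragments per library and fell under the minimum of the fragment test. Neither convertase listed (FURIN and PCSK7) was called by either test.

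Of the other ligands, BMP4 had the highest values (1.43 to 10.1 FPKM) and was not called. AMH, a granulosa cell hormone, was at 0 fragments in 15 libraries, including all 6 of spring MII, and reached 13.4 FPKM in spring GV replicate 3 alone. It was called lower in spring MII on fragments and not on FPKM. Without that library BMP15 differed in spring by 1.24 (adjusted p = 0.0641 in limma). The cumulus marker HAS2, the hyaluronan synthase of cumulus expansion, was higher in MII oocytes by 1.06 in spring (adjusted p = 0.00277 in limma) and 1.04 in summer (adjusted p = 0.00557 in limma), and with GREM1 in summer it was one of the 2 cumulus or granulosa markers called on FPKM among the 15 tested, against 24.2% of all genes in spring and 30.7% in summer. The fragment test called AMH and STAR lower and HAS2 higher in spring MII oocytes. In summer MII oocytes it called CD44 lower and HAS2 and PTGS2 higher. These calls were among 12 markers tested, where that test called 44.2% of all genes in spring and 44.1% in summer. The part of carried-over cumulus RNA in any of these values was not tested.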

How the data were processed

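RNA from pools of 4 oocytes was amplified with Smart-seq2 v4, made into Nextera XT libraries and sequenced on a NextSeq 500. The submitters' processing notes name FastQC, STAR 2.5.3a, Partek and build UMD3.1. The authors deposited FPKM values, the lowest being 0.01, for 11306 genes in 24 libraries. Groups were taken from the labels. GDF9 and BMP15, the pathway and marker lists and the tests were chosen with earlier results of these data known.

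Values were tested as log2(FPKM + 1) with limma 3.58.1 (R 4.3.3, trend, 2 groups per fit, no covariate) over 9526 genes above 0.1 FPKM in at least 1 library, with Benjamini-Hochberg adjustment and a call at 0.05. Exact permutation tests were two-sided. Correlations used 100000 permutations where a stage held 12 libraries. Fragments were recovered in Python 3.11.15 as value minus 0.01, times gene length, divided by the library's step. Of the 48 values of GDF9 and BMP15, 46 came within 0.01 of a whole fragment and the largest residual was 0.0877. The fits were tested on simulated data first. The genes named are both factors, listed pathway members, the 5 genes most like each factor, and markers. Alternatives were another pseudocount, filters, scalings, a block, left-out libraries and, chosen after seeing the data, voom on fragments and the relations with the 10 most abundant genes. Replicates are pools, 1 animal each by the study's methods, and equal replicate numbers were not stated to mark 1 cow.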

Additional observations from a re-analysis of the deposited data

Results flagged for a closer look

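GDF9 in spring GV replicate 6 (261 FPKM) was far above the other 5 spring GV libraries, of which the next had 90.5 FPKM; the gap was 0.803 of the range of the group. GDF9 in summer GV replicate 2 (379 FPKM) was far above the other 5 summer GV libraries, of which the next had 148 FPKM, a gap of 0.799 of the range. Both gaps exceed the 95% critical value of Dixon's test for 6 samples. They are poorly aligned libraries. BMP15 in them (4.64 and 6.82 FPKM) did not stand apart. In all 12 sets of 6 values were tested (both genes and their ratio in 4 groups), and chance flags about 1 in 20. No set of the ratio was flagged, yet the unlogged ratio also had a highest value far above the next in 3 groups. These were 56.2 against 18.7 in spring GV, 55.5 against 19.1 in summer GV and 21.5 against 7.77 in spring MII oocytes. Each was in a poorly aligned library, so the missing flag does not show that the ratio had no outlier.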

How the results depend on the processing

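Of 308 values of 16 results under other settings, 283 kept their direction and their side of the threshold. In the main setting only BMP15 in spring maturation and, by its unadjusted permutation p of 0.0327, the MII correlation were under 0.05. The other results had no call to lose, so the total says little about how firm the calls are. For BMP15 in spring maturation the adjusted p in limma exceeded 0.05 with median-of-ratios scaling (1.13) and with voom on fragments over the genes of the FPKM filter (1.12, adjusted p = 0.0517); with voom over genes of at least 10 fragments, also chosen after seeing the data, it was 1.12 with adjusted p = 0.04999, just under the threshold. Leaving out 1 library gave 1.17 to 1.59, with 8 of 12 calls lost. GDF9 in spring maturation turned to 0.089 with quantile normalization and 0.0029 without the poorly aligned libraries, and ran from -0.30 to 0.27 without 1 library; in MII season it ran from -0.034 to 0.51. The log2 ratio between GV seasons ran from -0.35 to 0.61, and between MII seasons from 0.10 to 1.07. The correlation of GDF9 with BMP15 became -0.61 in GV with median-of-ratios scaling (permutation p = 0.0356), and in MII -0.54 without the poorly aligned library (permutation p = 0.0884) and -0.32 without the 2 farthest (permutation p = 0.373). The cause was not tested in any of these.

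Equal replicate numbers were not taken to pair the libraries, since not every pair deviated together: deviations of same-numbered libraries correlated above 0.1 in 3, 4, 1 and 4 of 6 pairs for spring maturation, summer maturation, GV season and MII season, and 2, 1, 1 and 4 of 6 correlated best with their own number, a hint from the data in MII season and not from the design. With a replicate block, BMP15 in spring maturation was 1.35 (adjusted p = 0.0120 in limma) and GDF9 -0.04 (adjusted p = 0.925 in limma), and the block changed no limma call. The log2 ratio in spring maturation was lower in MII in 6 of 6 equal-numbered pairs (exact permutation p = 0.0312, the smallest that 6 pairs allow, or 0.125 adjusted over the 4 comparisons). The depth limits chiefly BMP15 in spring GV replicate 6.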

Other observations

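Within single groups of 6 libraries, the correlation of GDF9 with BMP15 was -0.51 in spring GV (exact permutation p = 0.319), -0.80 in summer GV (exact permutation p = 0.0278), -0.84 in spring MII (exact permutation p = 0.0319) and -0.42 in summer MII oocytes (exact permutation p = 0.431). The sign was negative in all 4 groups. Spearman's rho was -0.14, -0.77, -0.94 and -0.49 in the same order (exact permutation p = 0.803, 0.103, 0.0167 and 0.356). Without the 2 libraries farthest from the median of GDF9, r was -0.36, -0.61, -0.85 and 0.90 over 4 libraries each, so the sign in summer MII oocytes rests on replicates 4 and 6.

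The 5 highest GDF9 values (204 to 379 FPKM) were in 5 libraries: the 3 poorly aligned ones and summer MII replicates 4 and 6, which also had the next lowest shares among MII libraries in their 10 most abundant genes (31.0 and 27.7%). These 5 libraries had 4.64 to 13.3 FPKM of BMP15. Their summed cumulus or granulosa markers without the 2 keratins were 50.2 to 75.4 FPKM. Only spring GV replicate 3 had a higher sum (152), and the next library below was summer GV replicate 4 (37.3). Single markers differed: AMH was at 0.01 FPKM in all of the 5 but summer MII replicate 4 (0.0692). The part of somatic cell RNA in the levels of GDF9 and BMP15 was not tested.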
